A study of Homo sapiens with 4 samples.

Results

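The replication-dependent histone genes were taken as every gene whose symbol starts with HIST1H, HIST2H, HIST3H or HIST4H, which gave 73 of the 26364 genes listed. By type there were 6 H1, 18 H2A, 20 H2B, 14 H3 and 15 H4 genes. By cluster, 56 lay in HIST1, 13 in HIST2, 3 in HIST3 and 1 in HIST4. Their RNA levels were measured by RNA-seq in BE(2)C, an established human neuroblastoma cell line with amplified MYCN. A control group (Ctrl, n = 2) was compared with a group in which MYCN was knocked down by siRNA (MYCN KD, n = 2). Per the labels, the genotype was wild type in Ctrl and MYCN kd in MYCN KD. Cells of both groups were incubated with siRNA, at 80 nM in the labels and at another final concentration in the study's methods, and a lipid transfection reagent for 6 h, total RNA was taken the next day, and the labels do not describe the control siRNA. All samples come from 1 line, and nothing in the labels says that the replicates were separate cultures, so p-values measure only the spread between these samples.

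Replication-dependent histones package newly made DNA, and their mRNAs are made mainly in S phase. Most of these genes have no intron, and their mRNAs end in a conserved stem loop instead of a poly(A) tail. The stem loop is bound by SLBP, which acts in processing, translation and turnover of the mRNA. Some of the genes can also give a longer polyadenylated mRNA, a form known from cells that have left the cycle. How RNA was selected for the libraries is not given in the sources used here.

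The stem loop and the promoter are the sequences by which these genes are known, so they are shown first. A stem loop pattern of 16 letters, with the 13 letters that all forms below but the last share held fixed, was searched on the sense strand in the 100 bases after each stop codon. It was found in 61 of 65 histone genes (93.8%) and in 0.32% of 19697 genes. The other 8 members, the 3 pseudogenes among them, had no such window here. The common forms and the closest match in HIST1H3E are given below as DNA, 5′ to 3′, with the loop (positions 7 to 10, counted from 1 at the 5′ end) in capitals.
38 members, among them HIST1H1C, HIST1H2AC and HIST2H2BE: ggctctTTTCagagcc
9 members, among them HIST1H2BK, HIST1H2BD and HIST1H3G: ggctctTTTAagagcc
8 members, all H4, among them HIST1H4C and HIST1H4H: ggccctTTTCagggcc
4 members, all H4, among them HIST1H4I: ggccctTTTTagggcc
HIST1H3E: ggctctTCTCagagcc

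The 4 genes without a full match each differed from the pattern at 1 of its 13 fixed letters. HIST1H3E, HIST1H2BI and HIST1H4L carried T8C, inside the loop, and HIST1H2AK carried C3T, in the stem. In HIST1H3E the 16 letters began 31 bases after the stop codon, at chr6:26225824-26225839 of GRCh37 on the plus strand. A match is a description of these letters, and no match says only that they are not in the window.

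Promoter windows of 250 bases before to 50 after the start were searched on both strands for 4 motifs, none of which contains another. TATAAA was found in 67.7% of 65 histone promoters and in 9.6% of 19819 promoters. CCAAT was found in 86.2% against 36.0%, with all 52 windows of the H1, H2A, H2B and H3 genes and 4 of 13 H4 windows. The octamer ATTTGCAT, bound by OCT1 at H2B promoters, was found in 36.9% against 1.6%. It was in 12 of 16 H2A and 12 of 16 H2B windows and in no window of another type. Windows of head-to-head H2A and H2B genes overlap, so 1 octamer can count for both genes, as for HIST2H2BE and HIST2H2AC. These shares are therefore not counts of separate octamers. CACGTG, the E-box that MYC family proteins bind, was in 0 of 65 windows and in 8.8% of all promoters.

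Promoters of 3 genes described below are given over the 200 bases before the start of the canonical GENCODE transcript in GRCh37, 5′ to 3′ on the gene's strand. The TATA, CCAAT and octamer letters, in either orientation, are in capitals. HIST1H3E had the largest rise, HIST1H4C the only fall past the threshold, and HIST2H2BE is an H2B gene with an octamer.
HIST1H3E, chr6:26225163-26225362, plus strand: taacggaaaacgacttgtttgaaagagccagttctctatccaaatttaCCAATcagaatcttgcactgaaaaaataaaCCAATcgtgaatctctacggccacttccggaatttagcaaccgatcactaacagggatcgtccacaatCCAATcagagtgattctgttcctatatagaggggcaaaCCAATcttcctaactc
HIST1H4C, chr6:26103961-26104160, plus strand: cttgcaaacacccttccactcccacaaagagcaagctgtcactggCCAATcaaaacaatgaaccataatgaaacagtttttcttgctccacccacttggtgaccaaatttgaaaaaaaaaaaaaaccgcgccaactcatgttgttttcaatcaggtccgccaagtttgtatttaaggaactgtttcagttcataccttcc
HIST2H2BE, chr1:149858233-149858432, minus strand: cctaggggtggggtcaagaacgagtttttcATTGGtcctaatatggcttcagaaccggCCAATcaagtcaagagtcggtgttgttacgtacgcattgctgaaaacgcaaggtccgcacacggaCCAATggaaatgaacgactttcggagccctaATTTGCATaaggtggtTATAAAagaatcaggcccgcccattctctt

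Levels are RPKM, reads scaled to gene length and library size, as the authors normalised them. The total behind each library was between 29055819 and 34142988 normalised reads. MYCN itself, the target of the siRNA, had 1068 and 1073 RPKM in Ctrl samples and 720 and 718 RPKM in MYCN KD samples. That is a ratio of 0.672 and a log2 fold change of -0.57 ± 0.03 (SE, limma adjusted p = 0.00361), with no overlap of the groups. DBH was the highest of the 9 noradrenergic markers checked, which all passed the filter on low values. Their summed level was 1629 and 1776 RPKM in Ctrl samples and 2436 and 2662 RPKM in MYCN KD samples, with 4 genes higher and 2 lower. Summed blood cell markers stayed between 1.54 and 1.77 RPKM in every sample. Summed mesenchymal markers were 219 and 228 RPKM in Ctrl samples and 260 and 270 RPKM in MYCN KD samples, with THY1 highest and PRRX1 listed at 0, and all 3 tested were higher. Summed Schwann cell markers were 5.59 and 5.92 RPKM in Ctrl samples and 9.90 and 10.5 RPKM in MYCN KD samples, with both tested genes higher. By the same test 25.3% of all 11411 tested genes were higher and 22.8% lower. The part of these marker changes in the histone values was not tested.

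The replicates deviated as mirror images. In 25 of the 26 tested histone genes, and in 11337 of 11411 tested genes, the sample that was higher in Ctrl had the opposite replicate number to the one that was higher in MYCN KD. The correlation of the deviations was -0.99 over the 26 genes, which share libraries and normalisation. The replicate spread of each gene therefore carries less independent information than 4 separate samples would. SE and limma adjusted p values throughout rest on this spread and may be too small. The authors' removal of unwanted variation precedes these values, and its part in the mirror image was not tested.

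The histone genes were sparsely represented. Of the 73, 13 were listed at 0 in all samples, 34 lay above 0 with a mean under 1 RPKM, and 26 passed that filter and were tested. All members together made up 0.0472% to 0.0479% of the summed RPKM in Ctrl samples and 0.0653% to 0.0658% in MYCN KD. A tested member had between 10 and 2402 normalised reads in a sample, with a median of 37.5, and only HIST1H2BK exceeded 1000 in each. HIST2H2AA4, HIST2H3A, HIST2H3C, HIST2H4A and HIST2H4B, named after their values were seen, were among those at 0, and all the 50-base runs of their transcripts occurred elsewhere in the genome. Of the 67 members with runs counted, 33 had none elsewhere. A gene listed at 0 was not analysed further here, since H3F3A, a replacement histone gene in wide use, was also listed at 0.

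Among the 26 tested histone genes, 14 were higher and 1 was lower in MYCN KD (limma on log2(RPKM + 1), adjusted p under 0.05), and 11 did not pass. Over all 11411 tested genes, 48.1% passed, with 25.3% called higher and 22.8% lower. The share of histone genes called higher was 53.8%, and the median log2 fold change was 0.47 over the tested members and 0.03 over all tested genes. At a mean of 1 to 10 RPKM, where 21 of the members lay, 10 members were higher and 1 was lower, and over all 5674 tested genes of that range 28.3% were higher and 16.8% lower. Of the tested members, 17 had both MYCN KD samples above both Ctrl samples and 2 had both below, against 40.4% and 35.8% of all tested genes. In 3 of the tested members the Ctrl mean was under 1 RPKM, HIST1H2BC and HIST1H4H among them, which passed the filter through the group where they were high, so these 2 calls do not add to the count as support. HIST2H2BA, 1 of the 2 members with both below, passed the filter only through Ctrl and does not add to that count. In bulk RNA, more cells that express a gene and more of its RNA per cell cannot be told apart, nor can fewer cells and less RNA per cell.

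**Figure D1:**
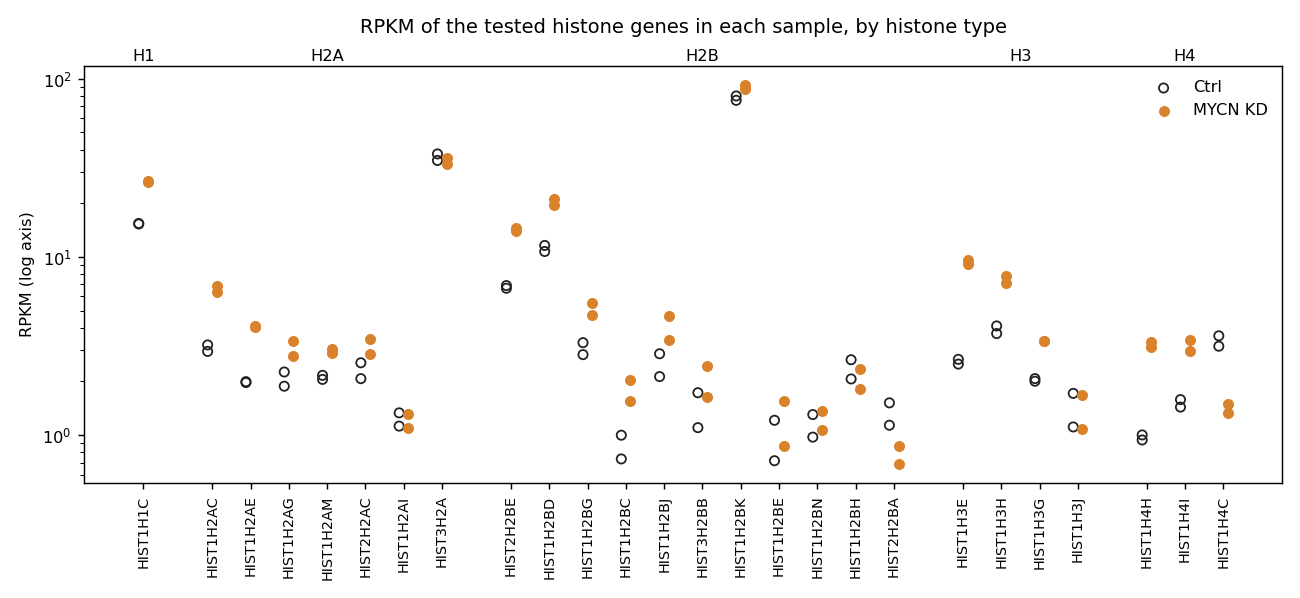
RPKM on a log axis for each of the 26 tested histone genes in the 2 Ctrl samples (open circles) and the 2 MYCN KD samples (filled circles), arranged by histone type. HIST1H2BK is the highest, followed by HIST3H2A and HIST1H1C, most remaining genes are under 10 RPKM, and the filled circles of 17 genes lie wholly above the open ones.

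Summed by type over all genes, H3 had the largest relative rise, with HIST1H3E included. That gene held 31.4% of the summed H3 RPKM. The H3 ratio without it was not calculated, so the rank of H3 may rest on this gene. HIST1H3E, at chr6:26224427-26227701 of GRCh37, had 2.66 and 2.50 RPKM in Ctrl samples and 9.09 and 9.58 RPKM in MYCN KD samples. It was 3.61 times higher, the largest change of the family, and the groups did not overlap (log2 fold change 1.53 ± 0.05, SE, limma adjusted p = 0.00359). These values rest on 79 normalised reads in Ctrl and 259 in MYCN KD. HIST1H3H had 3.72 and 4.10 RPKM in Ctrl samples and 7.86 and 7.17 RPKM in MYCN KD samples, and its log2 fold change was 0.80 ± 0.07. HIST1H3G had 2.01 and 2.08 RPKM against 3.39 in both MYCN KD samples, a log2 fold change of 0.53 ± 0.04. Both pairs of groups stood apart (adjusted p = 0.00653 and 0.00495, limma). None of the 50-base runs of these 3 H3 transcripts occurred elsewhere in the genome. Summed over the 14 H3 genes, which encode the core histone that carries the best known methylation and acetylation marks, the level was 12.97 ± 0.373 RPKM in Ctrl samples and 25.04 ± 0.674 RPKM in MYCN KD samples (SD, n = 2), a ratio of 1.93.

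The H4 genes moved in both directions. HIST1H4C, at chr6:26104161-26104565, had 3.15 and 3.61 RPKM in Ctrl samples and 1.5 and 1.33 RPKM in MYCN KD samples. It was the only histone gene past the threshold on the lower side, at 0.418 of the Ctrl level (log2 fold change -0.86 ± 0.08, SE, limma adjusted p = 0.00653). HIST1H4C was also the highest H4 gene by mean level, with 23.0% of the summed H4 RPKM, and it had 87 normalised reads in Ctrl and 33 in MYCN KD. HIST1H4H had 0.940 and 1.0 RPKM in Ctrl samples and 3.31 and 3.11 RPKM in MYCN KD samples. HIST1H4I had 1.58 and 1.44 RPKM in Ctrl samples and 2.98 and 3.41 RPKM in MYCN KD samples. Both rose without overlap of the groups, by 1.09 ± 0.05 and 0.74 ± 0.07 on the log2 scale (adjusted p = 0.00359 and 0.00755, limma). HIST1H4H passed the filter only through MYCN KD, with a Ctrl mean of 0.972 RPKM. The gene, with 24 normalised reads in Ctrl and 72 in MYCN KD, overlaps the exons of another annotated gene, ENSG00000289447. All H4 genes encode the core histone that pairs with H3, and their summed level was 9.11 ± 0.533 RPKM in Ctrl samples and 11.8 ± 1.18 RPKM in MYCN KD samples (SD, n = 2), a ratio of 1.29.

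Among linker histone genes 1 was tested, and it rose. HIST1H1C, which encodes the H1.2 linker histone and lies at chr6:26055968-26056698, made up 91.5% of the summed H1 RPKM. It had 15.4 and 15.3 RPKM in Ctrl samples and 26.4 and 26.6 RPKM in MYCN KD samples. The groups did not overlap, with a ratio of 1.73 and a log2 fold change of 0.75 ± 0.03 (SE, limma adjusted p = 0.00359). With 743 and 1164 normalised reads it was among the deeper members. The other 5 H1 genes were under the filter or listed at 0.

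Among the H2B genes 5 of 11 tested members rose, beside 25.3% of all tested genes. HIST2H2BE, at chr1:149856009-149858232, had 6.90 and 6.67 RPKM in Ctrl samples and 14.04 and 14.51 RPKM in MYCN KD samples. HIST1H2BD had 10.7 and 11.6 RPKM in Ctrl samples and 21.1 and 19.6 RPKM in MYCN KD samples. The groups of both genes stood apart, with log2 fold changes of 0.97 ± 0.04 and 0.81 ± 0.06 (adjusted p = 0.00359 and 0.00549, limma). HIST1H2BG had 2.83 and 3.30 RPKM against 5.49 and 4.72 RPKM, and HIST1H2BC had 0.736 and 0.9996 RPKM against 2.04 and 1.55 RPKM. Both changed by less, relative to their spread, at 0.59 ± 0.10 and 0.58 ± 0.13 (adjusted p = 0.0208 and 0.0348, limma). HIST1H2BC passed the filter only through MYCN KD, its Ctrl mean being 0.868 RPKM, and without the filter its adjusted p was 0.0574. It shares exon positions with HFE and with ENSG00000291336.

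HIST1H2BK was the most abundant of the replication-dependent genes and had the smallest change of the 15 called. It had 79.9 and 75.5 RPKM in Ctrl samples and 87.6 and 92.5 RPKM in MYCN KD samples, which made up 35.3% of the summed RPKM of all members. Its groups did not overlap, and its log2 fold change of 0.21 ± 0.05 was just past the threshold (limma adjusted p = 0.0447). With any 1 of the 4 samples left out the adjusted p was between 0.0700 and 0.256. Of the 50-base runs of its transcript, 57.2% occurred elsewhere in the genome. Summed H2B was 114 ± 1.88 RPKM in Ctrl samples and 147 ± 1.58 RPKM in MYCN KD samples (SD, n = 2), a ratio of 1.29, which became 1.58 without HIST1H2BK.

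The H2A genes followed with 3 of 7 tested members higher, beside 25.3% of all tested genes. HIST1H2AC, at chr6:26124373-26139344, had 2.95 and 3.21 RPKM in Ctrl samples and 6.87 and 6.33 RPKM in MYCN KD samples. HIST1H2AE had 1.97 and 2.00 RPKM in Ctrl samples and 4.09 and 4.07 RPKM in MYCN KD samples. Neither gene's groups overlapped, and the log2 fold changes were 0.90 ± 0.06 and 0.77 ± 0.04 (adjusted p = 0.00476 and 0.00359, limma). HIST1H2AM, whose exon overlaps that of HIST1H3J, rose by 0.35 ± 0.05 (adjusted p = 0.0121, limma), and without Ctrl replicate 2 its adjusted p was 0.0522. HIST3H2A, at chr1:228622478-228645574, held 64.6% of the summed H2A RPKM, with 37.8 and 34.7 RPKM in Ctrl samples and 33.1 and 36.0 RPKM in MYCN KD samples. Its groups overlapped, and its log2 fold change was -0.07 ± 0.07 (adjusted p = 0.465, limma). Summed H2A was 51.4 ± 1.58 RPKM in Ctrl samples and 58.2 ± 1.58 RPKM in MYCN KD samples (SD, n = 2), a ratio of 1.13, and the ratio was 1.56 without HIST3H2A.

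**Figure D2:**
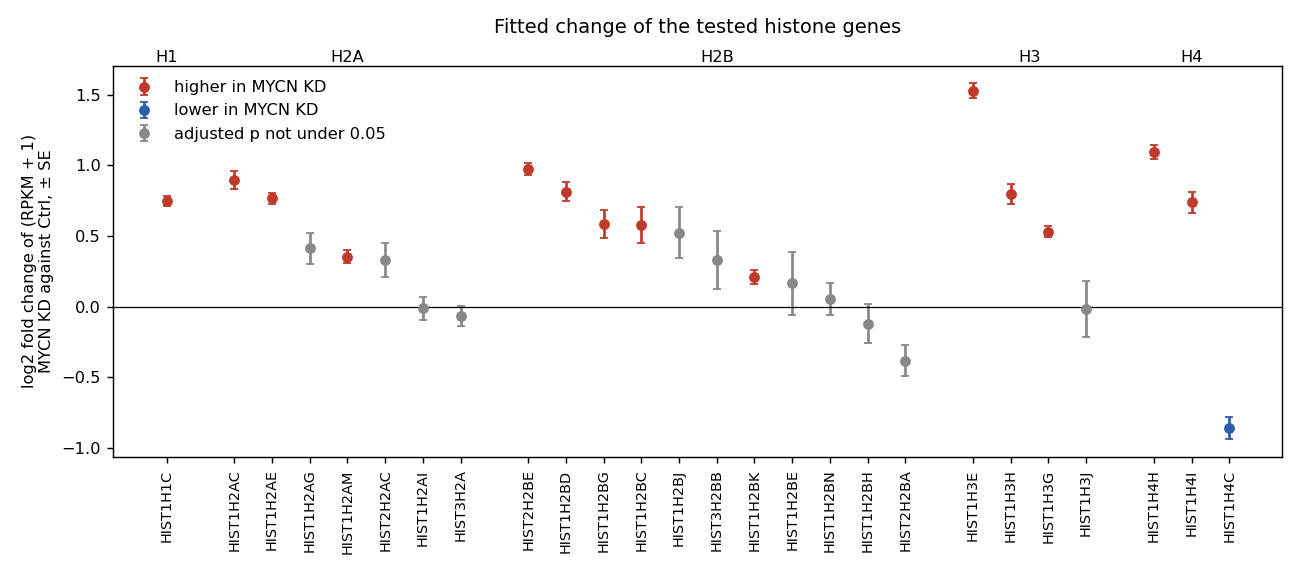
Log2 fold change of (RPKM + 1), MYCN KD against Ctrl, with its SE from limma, for the 26 tested histone genes by type. Red points are the 14 genes called higher, the blue point is HIST1H4C, and the 11 grey points did not pass the threshold.

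The 11 tested genes that did not pass ranged from -0.38 to 0.52 in log2 fold change. Those with the highest levels after HIST3H2A were HIST1H2BJ (0.52 ± 0.18, adjusted p = 0.0888), HIST2H2AC (0.33 ± 0.12, adjusted p = 0.103) and HIST1H2AG (0.41 ± 0.11, adjusted p = 0.0532), all by limma. Both MYCN KD samples lay above both Ctrl samples in each of these 3. With 1 sample left out, a lone sample is assumed to vary like the other group, so such fits cannot decide whether HIST1H2BJ changed. The lowest value was that of HIST2H2BA, a pseudogene named after its values were seen, with 1.14 and 1.52 RPKM in Ctrl samples and 0.869 and 0.690 RPKM in MYCN KD samples (adjusted p = 0.0611, limma). It passed the filter only through Ctrl, its MYCN KD mean being 0.780 RPKM.

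Under the filter, 34 histone genes had 0 to 33 normalised reads per sample. Both MYCN KD samples were above both Ctrl samples in 9 of them and below in 4, and the groups overlapped in 21. Among all 8497 genes above 0 under the filter, the shares were 37.9% above and 13.6% below. The highest were HIST2H2BC, HIST1H2BO and HIST1H4E. HIST2H2BC, a pseudogene, fell just under the filter with a mean of 0.994 RPKM, from 1.31 and 1.18 RPKM in Ctrl to 0.710 and 0.777 RPKM in MYCN KD samples. HIST1H2BO had 1.07 and 0.670 RPKM against 0.663 and 1.04 RPKM. HIST1H4E had 0.932 and 0.498 RPKM against 0.639 and 1.29 RPKM. The groups overlapped in the latter pair and stood apart in HIST2H2BC, and none of the 3 was tested.

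In HIST2, HIST3 and HIST4 a single gene made up most of the summed level. The HIST1 cluster on chromosome 6 went from 154 ± 2.71 RPKM to 214 ± 3.11 RPKM (SD, n = 2), a ratio of 1.39. In it 13 of 21 tested genes were higher and 1 lower, beside 25.3% and 22.8% of all tested genes. HIST1H2BC and HIST1H4H, which passed the filter only through MYCN KD, are among the 13 and do not add to that count as support. The HIST2 cluster on chromosome 1 went from 12.1 ± 0.367 RPKM to 19.5 ± 0.809 RPKM, a ratio of 1.60, and HIST2H2BE held 66.6% of its sum and was the only 1 of 3 tested genes called. The HIST3 cluster, 95.3% of it HIST3H2A, had 37.7 ± 1.71 RPKM in Ctrl samples and 36.6 ± 1.47 RPKM in MYCN KD samples, and neither of its 2 tested genes passed. HIST4H4, alone in HIST4 on chromosome 12, had 0.924 and 0.455 RPKM in Ctrl samples and 0.418 and 0.784 RPKM in MYCN KD samples, with overlap. Over all 73 genes the sum was 205 ± 5.12 RPKM in Ctrl samples and 271 ± 5.64 RPKM in MYCN KD samples, a ratio of 1.32, which was 1.61 without HIST1H2BK and HIST3H2A.

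**Figure D3:**
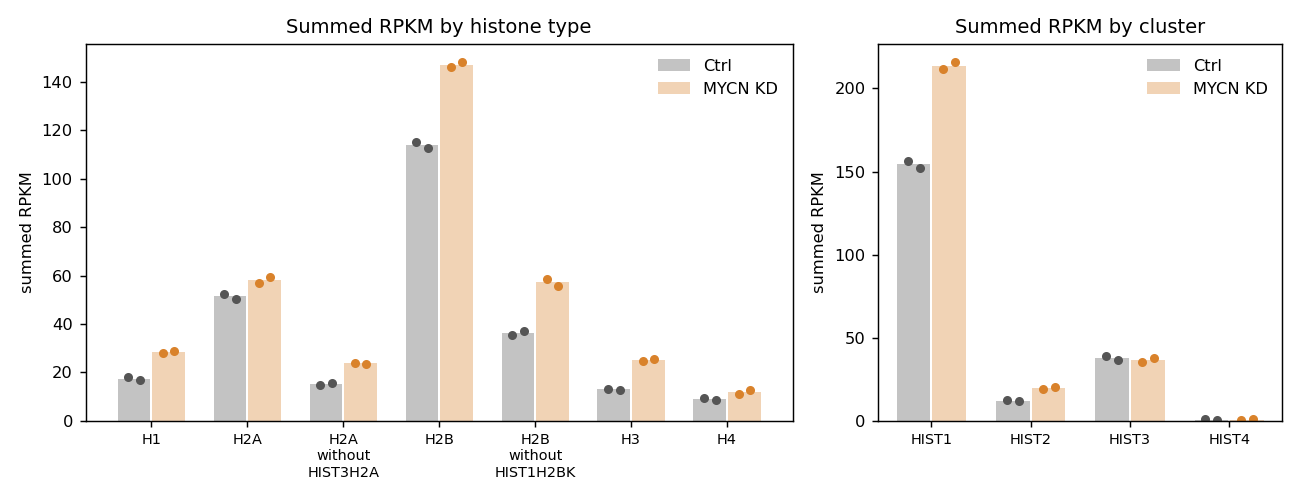
Summed RPKM of the histone genes by type (left) and by cluster (right), with each sample as a point and bars at the mean of the 2 Ctrl and the 2 MYCN KD samples, on an axis from 0. The sums of H1, H2A, H2B, H3 and H4 are higher in both MYCN KD samples. With HIST1H3E included, H3 has the largest ratio of the types (1.93). HIST3 and HIST4 overlap between the groups.

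Along HIST1 the genes called higher were spread over the cluster and were interspersed with genes that did not pass. HIST1H4C, the gene that fell, lies between HIST1H1C and HIST1H2BC by transcript start among the tested genes, and both of those rose. HIST1H2BG had no position here and is not drawn.

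**Figure D4:**
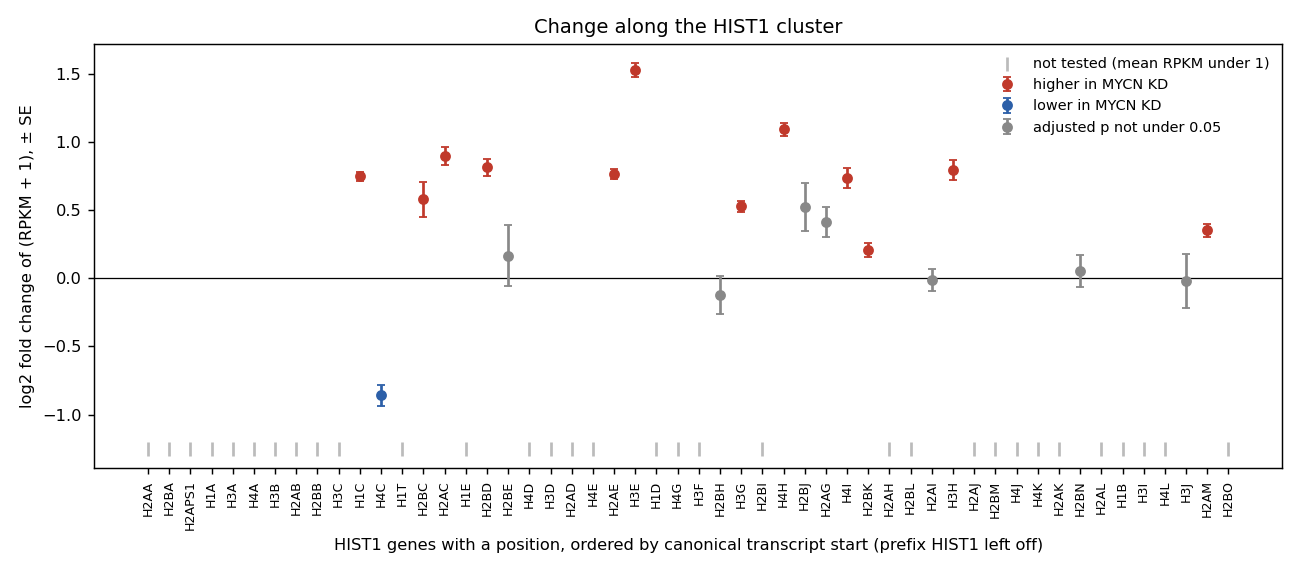
Log2 fold change of (RPKM + 1) with its SE for HIST1 genes in the order of their transcript starts, with grey ticks at the bottom for genes that were not tested. Red points occur from HIST1H1C near the left to HIST1H2AM near the right, and the blue point of HIST1H4C stands between 2 red ones.

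Many H2A and H2B genes lie head to head and share the stretch between their starts. In 10 such pairs the starts were 194 to 251 bases apart. Both genes were tested in 4 pairs, and in 3 of these both genes had MYCN KD samples wholly above Ctrl. Of all single tested genes, 40.4% had MYCN KD samples wholly above Ctrl. That is not a like measure, and the share over pairs of genes was not calculated. HIST1H2BC and HIST1H2AC rose by similar ratios, 2.07 and 2.14, and were the only pair with both genes called. HIST1H2BC passed the filter only through MYCN KD, so neither its call nor the place of its pair among the 3 is support for a shared change. Exons of both genes also overlap those of ENSG00000291336. HIST2H2BE was 2.104 times and HIST2H2AC 1.37 times the Ctrl level, and HIST1H2BJ and HIST1H2AG were at 1.62 and 1.49 times. In the fourth pair, HIST3H2A with HIST3H2BB, the groups of both genes overlapped. Levels within a pair could be far apart. The mean Ctrl level was 77.7 RPKM for HIST1H2BK and 0.156 RPKM for its partner HIST1H2AH, and 36.3 RPKM for HIST3H2A and 1.42 RPKM for HIST3H2BB. HIST1H2AH and HIST3H2BB were named after their values were seen.

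Calls were also counted by features that the choice of the genes did not use. Of the H2A and H2B genes with a promoter window, 11 tested genes held the octamer, 6 of them were higher, and their median log2 fold change was 0.41. The 5 tested genes without it had 1 call and a median of 0.05. Of the 6, HIST1H2BC passed the filter only through MYCN KD, and HIST1H2BK lost its call under several other settings. Neither call is support for a difference by octamer. With TATAAA, 8 of 14 tested genes were higher and none lower, and without it 5 of 10 were higher and 1 was lower. HIST1H2BC is among the 8 and HIST1H4H, which also passed the filter only through MYCN KD, is among the 5. Over all tested genes, 25.3% were higher and 22.8% lower. These are counts over few genes that share libraries and, in pairs, promoters, and no test was made of them.

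The counted length, recovered from the values, was 354 to 2223 bases and exceeded 1000 bases in 2 genes. HIST2H2BE, at 2223 bases, was the only tested one of these and rose. Above 800 bases, HIST2H2BE, HIST1H2BD and HIST1H2BK were all called higher, and of the 23 tested genes up to 800 bases 11 were higher and 1 was lower. The shares over all tested genes were 25.3% higher and 22.8% lower. In GENCODE, 17 members have a transcript that reaches more than 200 bases past the stop codon, a limit set after the values were seen. Of their 12 tested genes 7 were higher, with a median log2 fold change of 0.69, and among the 12 tested genes with shorter annotation 6 were higher and 1 was lower, with a median of 0.34. HIST1H2BC and HIST1H4H are among these 7 and among the 11 called up to 800 bases. Both passed the filter only through MYCN KD, as did HIST1H2BE, a gene of the first group that was not called. The counts and medians that hold them are therefore not support for a larger rise in the first group. Except for HIST2H2BE and HIST1H2BD, the tested genes of the first group were counted over only 374 to 546 bases. HIST1H3E at 462 and HIST1H4H at 374 bases were among them. Reads from longer transcripts beyond those lengths were not counted for these genes. HIST1H2BK, counted over 839 bases, was among the genes with shorter annotation. The split therefore does not compare counted long transcripts with short ones.

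Genes for the handling of histone mRNA were examined beside the histone genes, 25 in all. None was higher and 9 were lower, with a median log2 fold change of -0.14, while 22.8% of all tested genes were lower. SLBP, the stem loop binding protein, had 50.8 and 55.4 RPKM in Ctrl samples and 32.5 and 30.0 RPKM in MYCN KD samples. It fell by 0.75 on the log2 scale (SE 0.07, limma adjusted p = 0.00691), with no overlap of the groups. By role, 2 of 7 genes of transcription, 5 of 11 of 3′ end processing and 2 of 7 of export, translation and turnover were lower. NPAT, the coactivator of histone gene transcription at S phase entry, had 4.05 and 4.09 RPKM against 3.98 and 3.94 RPKM (log2 fold change -0.03 ± 0.04, adjusted p = 0.532, limma), and its sign changed when samples were rescaled to the same total.

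Others of these genes that fell were CCNE1 (cyclin E1, whose kinase acts on NPAT) by 0.57, SYMPK (the scaffold protein symplekin) by 0.51, UPF1 (a helicase of histone mRNA decay) by 0.41 and SRRT (ARS2) by 0.37 on the log2 scale. The mRNA export receptor NXF1 fell by 0.30 and LSM10, a subunit of the U7 particle, fell by 0.24. Their limma adjusted p values were between 0.0107 and 0.0487. LSM10 did not pass with any 1 of the 4 samples left out (adjusted p from 0.0626 to 0.166, limma), and NXF1 did not without Ctrl replicate 1 or without MYCN KD replicate 1 (0.148 and 0.156).

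Of 28 S phase genes, 21 were lower, none was higher and 7 did not pass, with a median log2 fold change of -0.43. Of all tested genes, 22.8% were lower and 25.3% higher. PCNA, the sliding clamp of DNA polymerase, had 142 and 205 RPKM in Ctrl samples and 89.1 and 62.6 RPKM in MYCN KD samples. The replicates of PCNA differed widely but the groups did not overlap, and it fell by 1.18 ± 0.28 on the log2 scale (adjusted p = 0.0400, limma). The origin licensing factor CDC6 fell by 0.76, the helicase subunit MCM2 by 0.67 and the helicase cofactor CDC45 by 0.65 (adjusted p from 0.00359 to 0.0124, limma).

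Most replacement histones are also made outside S phase, from polyadenylated mRNA. H2AFX mRNA comes in both forms, with a stem loop or a poly(A) tail. Of 12 replacement histone genes listed, 11 were tested, with 4 higher, 3 lower and a median log2 fold change of 0.13. Of all tested genes, 25.3% were higher and 22.8% lower. H2AFZ (H2A.Z) was the most abundant, with 349 and 423 RPKM in Ctrl samples and 301 and 250 RPKM in MYCN KD samples. The groups did not overlap, but its log2 fold change of -0.49 ± 0.15 did not pass (adjusted p = 0.0703, limma). H1FX (H1.10) had 296 and 267 RPKM against 295 and 326 RPKM, with overlap, at 0.14 ± 0.08 (adjusted p = 0.231, limma). H2AFX, whose product is phosphorylated at DNA breaks, fell by 0.38 ± 0.07, and H1F0, a linker histone of resting cells, rose by 0.36 ± 0.04 (adjusted p = 0.0265 and 0.00779, limma). H1F0 and HIST1H1C, both linker histone genes, were higher by ratios of 1.29 and 1.73.

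**Figure D5:**
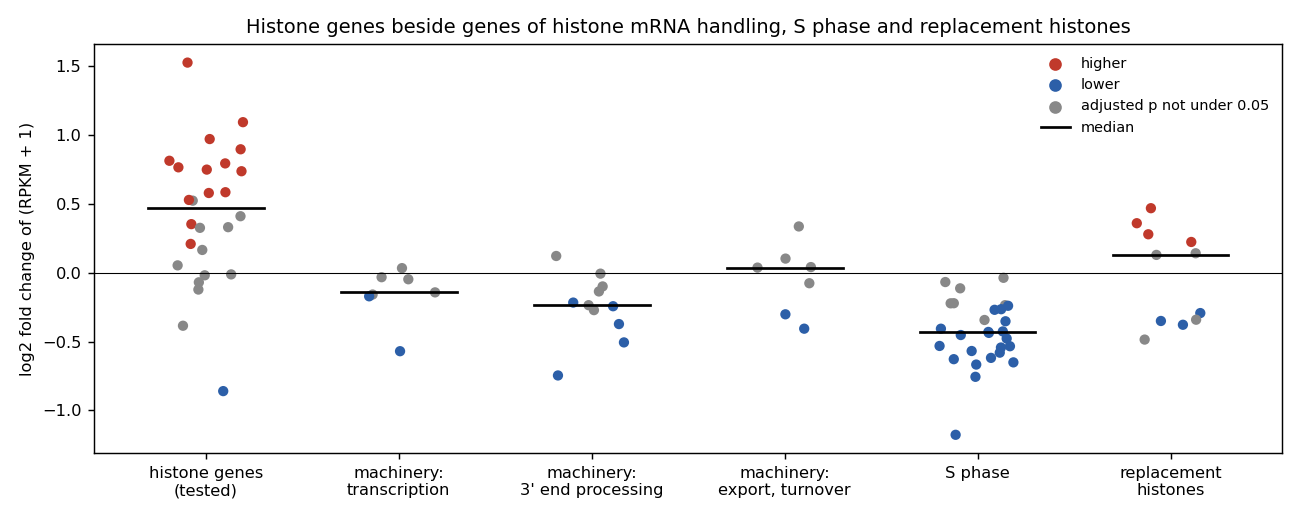
Log2 fold change of (RPKM + 1) for the 26 tested histone genes and for tested genes of histone mRNA handling in 3 roles, S phase and replacement histones, each point a gene and each black line the median of its list. The median is 0.47 for histone genes and -0.43 for S phase genes, and the replacement histones lie on both sides of 0.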

How the data were processed

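RNA-seq values of 2 Ctrl and 2 MYCN KD samples of BE(2)C cells were used. The deposited values are RPKM, in 1 file per sample. Per the study's methods and the labels, the authors used HISAT2 2.1.0 for mapping to hg19 and featureCounts for counts over RefSeq genes. The authors ran DESeq2 on these counts and RUVSeq to take out unwanted variation, and then calculated RPKM. That normalisation can change the spread between replicates. For all 19908 genes above 0 a counted length was found at which the 4 values are whole numbers of reads within a relative tolerance of 1e-08 (divided by RPKM where that is under 1). These reads are after the authors' normalisation. For 2 histone genes a multiple nearer to the annotated length was taken.

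Groups and replicate numbers came from the labels. The test was limma 3.58.1 in R 4.3.3 on log2(RPKM + 1), with genes of a mean of at least 1 RPKM, eBayes with a trend, no covariate, two-sided, and Benjamini-Hochberg adjustment over all 11411 genes tested. On this scale the change of low genes is understated, while ratios are of mean RPKM. The fit was checked on simulated data. The members and gene lists were chosen with earlier results of these data known, so lists are described by counts and medians. Histone genes named were all past the threshold, the highest of each type and cluster, the 4 highest tested genes that did not pass and the 3 highest under the filter. From the lists, NPAT, SLBP, PCNA, those with the largest changes past the threshold (6 of mRNA handling, 3 of S phase) and the 4 highest replacement histones were named. Correlations of replicate deviations were negative, so equal replicate numbers were not taken as pairs.

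Positions come from GENCODE v44 lifted to GRCh37 and sequences from the GRCh37 genome. All 73 symbols were found among RefSeq synonyms of current symbols, and 68 had a position. HIST2H2AA3, HIST1H2BF, HIST1H2BG, HIST1H4B and HIST1H4F had none that was used here. Python 3.11.15, numpy 2.4.6, pandas 2.3.3 and matplotlib 3.10.9 were used. The alternatives were other pseudocounts, filters, scalings and variance settings, a replicate block, limma voom on the recovered reads and each sample left out. The strand setting of the counting, the read length and the handling of reads with several matches are not given in the sources used here, so overlapping or near-identical histone genes remain uncertain.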

Additional observations from a re-analysis of the deposited data

How the results depend on the processing

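The 14 calls of higher histone genes in MYCN KD became 13 to 16 under other pseudocounts, scalings and variance settings, without a filter, with limma voom and with a sample left out (15 to 16), and 6 of 7 tested genes at a mean of at least 5 RPKM. Calls over all genes also moved, from 2890 higher and 2599 lower of 11411 in the main fit. They were 3279 and 2122 rescaled to the same total, 2901 and 2993 with quantile normalization and 2909 and 2585 with limma voom. Without a filter 3384 of 19908 genes were higher and 2594 lower, and at 5 RPKM 1868 of 7859 were higher and 2106 lower. The 1 call of a lower gene (HIST1H4C) became 3 without a filter (with HIST2H2BC and HIST1H3I) and 0 at 5 RPKM. It became 2 with quantile normalization and 2 with the replicate block, with the pseudogene HIST2H2BA in both. HIST2H2BA passed the filter only through Ctrl, so its added calls are not support for a fall. The median log2 fold change of 0.47 was 0.61 at a pseudocount of 0.1, 0.21 at 5, 0.055 without a filter, 0.80 at 5 RPKM, 0.51 rescaled to the same total, 0.38 with quantile normalization, 0.63 with limma voom, 0.40 to 0.53 with a sample left out and 0.52 without the pseudogene. A pseudocount makes the log2 fold change of low genes smaller. Without a filter the 34 members with a mean under 1 RPKM also enter. In 21 of these the groups overlapped, with both MYCN KD samples above Ctrl in 9 and below in 4. The ratio of summed RPKM of 1.32 was 1.38 rescaled to the same total, 1.30 to 1.34 with a sample left out, and 1.61 without HIST1H2BK and HIST3H2A, the last chosen after seeing the data. By counted length, 1 higher gene over 1000 bases became 3 over 800 bases. The 9 lower genes of histone mRNA handling became 5 without a filter and 5 with the replicate block, and 6 to 7 with a sample left out. NPAT turned from -0.03 to 0.017 when rescaled to the same total. What caused these shifts was not tested.

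The replicate numbers do not pair the samples (correlation of deviations -0.98 over 11411 genes). With the replicate block 14 histone genes were higher and 2 lower, and HIST1H2BK and HIST1H2AM lost their calls (adjusted p = 0.240 and 0.0839, limma), while over all genes 2077 were higher and 1851 lower against 2890 and 2599. The crossed block, added after seeing the data, gave 20 histone genes higher and 4 lower, 18 lower genes of histone mRNA handling, 5 lower replacement histones, and 5910 higher and 5262 lower genes of all.

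HIST1H2BK also lost its call without a filter, without the trend and with limma voom (adjusted p = 0.0639, 0.0502 and 0.0517), and HIST1H2BC without a filter (0.0574, limma). HIST1H2AG gained a call without replicate 2 of either group and HIST2H2AC without replicate 1 of either group. Fits with a sample left out keep a lone sample in a group, so calls gained there are not support. UPF1, SRRT, NXF1 and PCNA did not pass without a filter (adjusted p = 0.0615, 0.0751, 0.0689 and 0.0652, limma), nor did PCNA and SRRT rescaled to the same total (0.0537 and 0.0502). With the replicate block LSM10 and NXF1 lost their calls (0.193 and 0.129) and H2AFZ gained one (0.00125). Depth is a limit, since 34 genes held at most 33 normalised reads per sample, and the 2 samples per group with mirrored deviations give little measure of error.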
